A study of Mus musculus with 6 samples.

Results

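Astrocyte genes, 38 in all, were examined in arcuate hypothalamus of mice that lack Dicer in Pomc-expressing cells. The members are genes whose transcripts are known to mark or serve astrocytes, and all of their probe sets on the Affymetrix Mouse Genome 430 2.0 array that carry 1 gene symbol were taken. They had 94 of the 45037 probe sets tested, and all 38 were measured, among 18193 genes in the series. There were 3 arrays of POMCDicerKO mice, whose Pomc-expressing cells lost Dicer, the nuclease that cuts microRNA precursors, and 3 arrays of control mice (genotype label Ctrl). All mice were 2 weeks old, their strain was a mix (C57Bl/6J with FVB/N and 129), and the tissue was microdissected arcuate hypothalamus. The labels do not give the Cre driver, the controls' alleles, sex or any pooling of animals. Astrocytes are not named in the labels as cells that lost Dicer. The samples are described as independent. The p-values rest on the spread between these 6 samples, moderated by limma towards the spread over all probe sets.

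Astrocytes are the glial cells that clear glutamate and potassium from the space around synapses, pass small molecules to each other through gap junctions, and contact blood vessels with endfeet rich in water channels. Slc1a2 and Slc1a3 take up glutamate and Glul turns it into glutamine. After injury or inflammation astrocytes become reactive, a state usually recognised by more of the filament protein Gfap. In the arcuate nucleus they ensheathe the neurons that control appetite.

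Values are log2 expression per probe set. Each gene is given at its main probe set, the one with the highest mean over the 6 arrays. All members were measured well up the scale: main probe sets of all 38 members had a mean of at least 6, against array medians between 6.02 and 6.05, and their means ran from 7.63 to 13.56. No filter on low values was applied before the test.

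None of the 38 genes passed the test, and they lay evenly around no difference. In POMCDicerKO, 19 were higher and 19 lower than in control. Over all genes 8165 were higher and 10028 lower, and among genes with a mean of at least 6 the counts were 4754 and 6988. The median log2 fold change, POMCDicerKO minus control, was 0.00033, beside -0.0099 over all 18193 genes. After Benjamini-Hochberg adjustment of limma's p over all probe sets, 0 members passed 0.05, and so did 0 of all probe sets (0% of those tested), of which the smallest adjusted p was 0.417. At an unadjusted p under 0.05 there was 1 member, Id3, where 2.41% of all genes were called (1.47% lower, as Id3 was). The groups did not overlap at 2 members, S100b and Aldoc, both higher in POMCDicerKO, where 6.44% of all genes had no overlap (2.58% higher). Among 11742 genes with a mean of at least 6, as all members had, 2.13% had an unadjusted p under 0.05 (1.39% lower) and 5.84% no overlap (1.82% higher). The members' shares, 2.63% and 5.26%, are near those of the background.

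The intervals say how large a difference the arrays would still allow. For 37 of the 38 members the 95% interval at the main probe set lay wholly inside 1.5-fold in either direction (a log2 value of 0.58). The share was 97.2% of all genes and 96.7% of those with a mean of at least 6. The exception was Id3. This count was chosen after the values were seen. Apart from Id3, log2 fold changes lay between -0.15 and 0.14, and the interval bounds reached -0.49 for Aqp4 and 0.49 for F3. Standard errors ran from 0.061 to 0.198. In bulk tissue, fewer astrocytes and less RNA per astrocyte cannot be told apart.

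**Figure D1:**
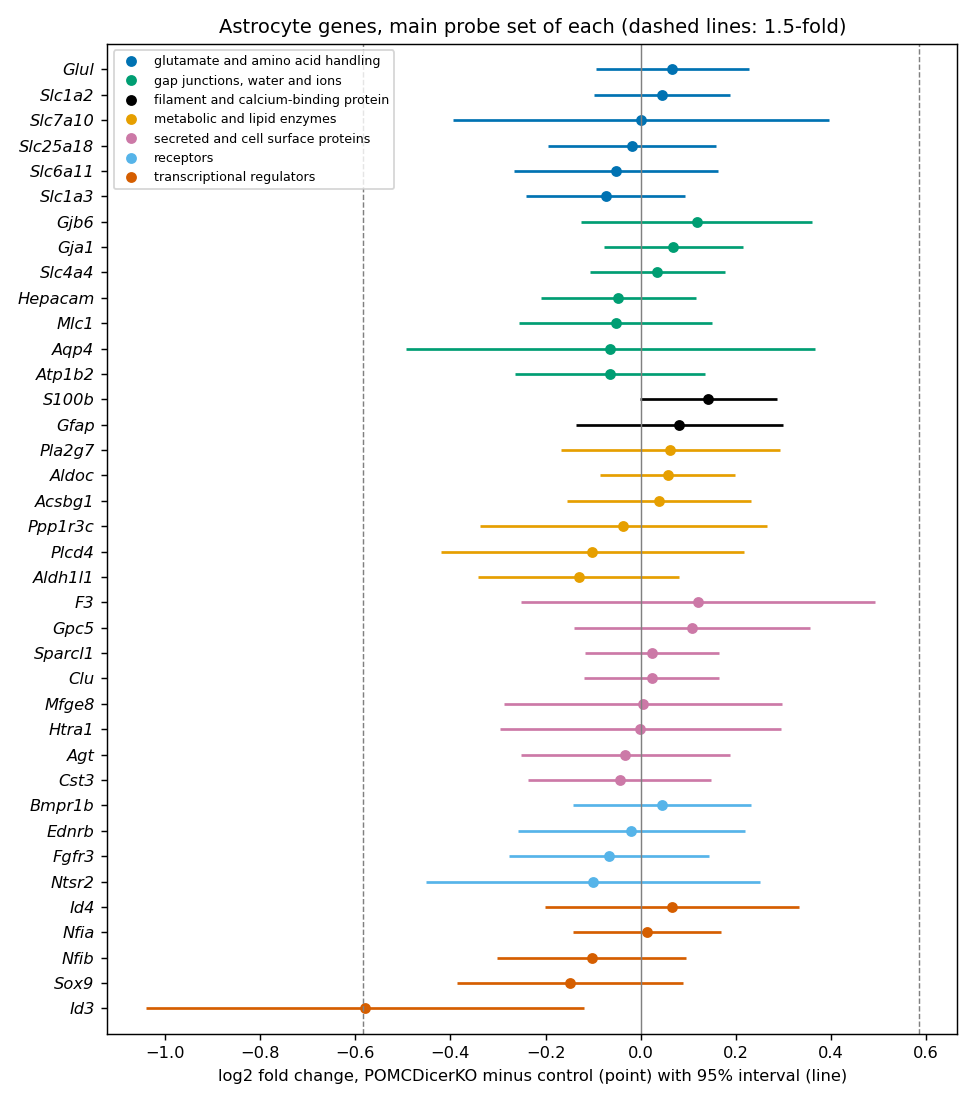
Log2 fold change, POMCDicerKO minus control, of the 38 astrocyte genes at their main probe sets, with limma's 95% intervals as lines, coloured by role. The dashed lines mark 1.5-fold, and 37 of the 38 intervals lie between them, with Id3 as the exception.

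The transcriptional regulators held the member with the largest difference. Id3 encodes an inhibitor of basic helix-loop-helix transcription factors and is induced by bone morphogenetic proteins in many cell types. It read 8.03, 7.60 and 8.31 on the POMCDicerKO arrays, against 8.24, 8.68 and 8.76 on the control arrays. The groups overlapped, since POMCDicerKO array 3 lay above control array 1. Id3 averaged 7.98 ± 0.36 in POMCDicerKO and 8.56 ± 0.28 in control (SD, n = 3 each), a log2 fold change of -0.58 (SE 0.20) with a 95% interval from -1.04 to -0.12. It did not pass limma's threshold over all probe sets (unadjusted p = 0.020, adjusted p = 1). Id3 has 1 probe set, so no further probe set bears on it. Over the alternatives its log2 fold change ran from -0.78 to -0.39 and its unadjusted p from 0.0066 to 0.091. That p was 0.061 without control replicate 2, 0.068 without control replicate 3 and 0.061 without POMCDicerKO replicate 2. Id3 is also expressed by endothelial cells, of whose 9 measured markers, with those of pericytes, 6 were higher and 3 lower at a median log2 fold change of 0.037. Among other cell lists, meningeal and fibroblast markers were 0 higher and 11 lower (median -0.63), and tanycyte markers 1 higher and 8 lower (-0.28). Mature oligodendrocyte markers were 11 higher and 0 lower (0.42). The part of any of these cells in the Id3 values was not tested. Id4, its paralogue, was at 0.066, and Bmpr1b, a receptor of bone morphogenetic proteins, at 0.044.

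Sox9, a regulator of the glial fate that adult astrocytes keep, read 7.34, 7.60 and 7.71 on the POMCDicerKO arrays and 7.61, 7.74 and 7.75 on the control arrays. Its log2 fold change was -0.15, SE 0.10 (unadjusted p = 0.19 by limma), and POMCDicerKO array 1 was the lowest of the 6. It was -0.044 without POMCDicerKO replicate 1 and -0.23 without POMCDicerKO replicate 3. Nfib, a nuclear factor I protein that acts in gliogenesis, read 8.98, 9.15 and 8.87 in POMCDicerKO and 9.08, 9.17 and 9.05 in control. Its groups overlapped, at a log2 fold change of -0.10, which was -0.18 without POMCDicerKO replicate 2 and -0.039 without POMCDicerKO replicate 3. Nfia, of the same family, was at 0.013 with an interval from -0.14 to 0.17. Sox9 is also expressed by tanycytes, the glia that line the third ventricle. A list of 9 tanycyte markers had 8 members lower and a median log2 fold change of -0.28. By array its median difference from the control mean was -0.37, 0.11 and -0.25 in POMCDicerKO and -0.067, 0.13 and -0.11 in control, and its part in the Sox9 values was not tested.

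Nfia and Nfib are members and their proteins bind DNA at TTGGC, so the members' promoters were searched for these letters and for 6 other motifs. Sequences of 32 members were found in RefSeq's GRCm38.p6 promoter table, each 250 bases before to 50 after a gene start. Both strands were read, a gene with several windows counted once, and matches of different motifs were allowed to overlap. TTGGC was present for 16 of the 32, beside 50.4% of 27025 genes, and the full nuclear factor I palindrome, which is TTGGC and GCCAA with 5 bases between, for 0, beside 0.0444%. The SOX motif ACAAAG was present for 4 of the 32, beside 21% of all genes. The STAT motif TTCNNNGAA, bound by Stat3, a factor of the reactive response of astrocytes, was present for 7 of the 32, beside 9.55% of all genes. The 7 were Acsbg1, Agt, Aldoc, Gfap, Ntsr2, Pla2g7 and Slc1a3. The SMAD motif of bone morphogenetic protein signalling, GGCGCC, was present for 5, beside 13.4%. The SMAD palindrome GTCTAGAC was present for 0, beside 0.248%, and the TATA box TATAAA for 6, beside 15.7%. The motifs shown in the sequences were chosen after these 7 counts were seen. The windows of Id3 and S100b, the members with the smallest p, are shown with TTGGC or its complement in capitals, and that of Gfap, the reactive marker, with the STAT motif in capitals.
Id3, chr4:136143572-136143871, plus strand: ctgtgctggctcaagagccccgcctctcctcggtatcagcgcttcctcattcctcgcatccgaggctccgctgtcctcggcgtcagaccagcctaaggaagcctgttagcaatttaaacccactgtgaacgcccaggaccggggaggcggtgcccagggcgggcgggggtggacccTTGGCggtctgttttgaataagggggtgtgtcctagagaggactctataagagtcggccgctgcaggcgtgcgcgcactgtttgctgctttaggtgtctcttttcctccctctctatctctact
S100b, chr10:76253586-76253885, plus strand: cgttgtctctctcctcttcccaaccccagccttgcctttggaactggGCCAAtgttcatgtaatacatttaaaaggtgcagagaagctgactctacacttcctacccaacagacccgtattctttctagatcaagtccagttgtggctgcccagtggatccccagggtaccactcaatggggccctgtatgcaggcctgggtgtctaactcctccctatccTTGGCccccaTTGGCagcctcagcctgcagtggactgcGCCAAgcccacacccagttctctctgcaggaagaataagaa
Gfap, chr11:102897151-102897450, minus strand: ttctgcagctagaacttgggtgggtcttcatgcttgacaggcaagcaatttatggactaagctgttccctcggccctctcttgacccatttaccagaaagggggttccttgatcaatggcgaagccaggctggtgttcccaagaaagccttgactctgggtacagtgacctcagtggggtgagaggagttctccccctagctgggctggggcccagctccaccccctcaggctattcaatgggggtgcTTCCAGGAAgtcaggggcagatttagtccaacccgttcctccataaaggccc
The S100b window held 4 matches and those of Id3 and Gfap 1 each. A match is a description of the letters and not a site shown to be bound.

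S100b and Gfap, a calcium-binding protein and the intermediate filament protein of astrocytes, were both slightly above control. S100b read 11.02, 10.98 and 10.92 on the POMCDicerKO arrays and 10.86, 10.84 and 10.81 on the control arrays. The groups did not overlap. The means were 10.98 ± 0.049 in POMCDicerKO and 10.83 ± 0.026 in control (SD, n = 3 each), a log2 fold change of 0.14 (SE 0.062) with an interval from -0.0020 to 0.29 (limma, unadjusted p = 0.053, adjusted p = 1). Over the alternatives it ran from 0.12 to 0.17 and its unadjusted p from 0.012 to 0.15. That p was 0.048 with a further quantile normalisation, 0.020 with a trended prior, 0.032 with array weights, 0.012 with no moderation and 0.041 without POMCDicerKO replicate 3. Its further probe set, 1419383_at, gave the same size, 0.14 (SE 0.090), but there the groups overlapped.

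S100b is also made by oligodendrocytes. Of 11 measured mature oligodendrocyte genes, 11 were higher, 8 of them at an unadjusted p under 0.05 by limma (2.41% of all genes were) and 0 past the adjusted threshold, with a median log2 fold change of 0.42. By array, the list's median difference from the control mean was 0.81, 0.11 and 0.37 in POMCDicerKO and 0.13, -0.13 and -0.0012 in control. POMCDicerKO array 1 was the highest of the 6 both for S100b and for this list. POMCDicerKO array 2 lay below control array 1 for the list but above it for S100b. The part of oligodendrocyte RNA in the S100b values was not tested.

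Gfap read 8.84, 8.94 and 8.84 in POMCDicerKO and 8.88, 8.89 and 8.60 in control. Control array 3 alone was low, and the other 5 arrays lay together. Gfap averaged 8.87 ± 0.059 in POMCDicerKO and 8.79 ± 0.17 in control (SD, n = 3 each), a log2 fold change of 0.081 (SE 0.093) with an interval from -0.14 to 0.30. Without control replicate 3 it was -0.015. Against control 3 alone it was 0.27, where a larger value follows from the choice of the lowest array. Its further probe sets, 1426509_s_at and 1426508_at, gave 0.12 and 0.062, again with control array 3 the lowest.

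**Figure D2:**
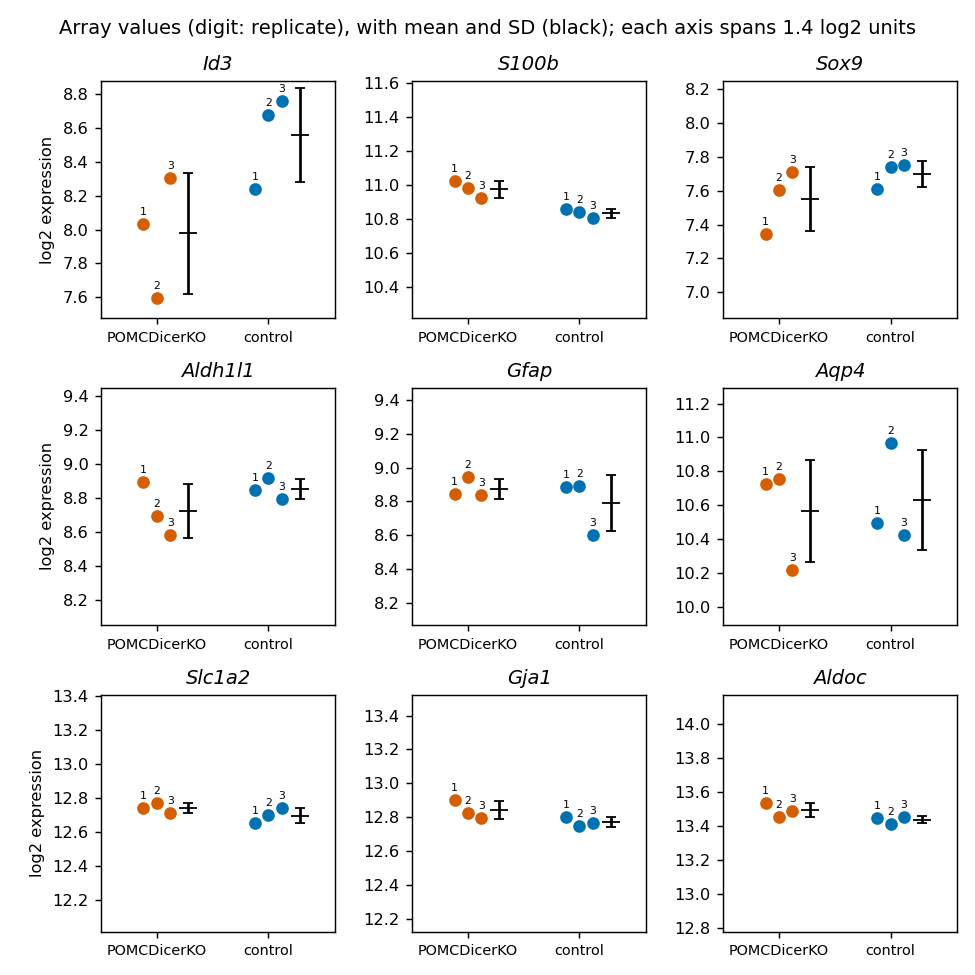
Log2 expression of 9 astrocyte genes on each array, POMCDicerKO at left and control at right, with the replicate number above each point and the group mean with its SD in black. Every panel spans the same range on the log2 scale, so that Id3 and Aqp4 scatter widely while Slc1a2, Gja1 and Aldoc vary little, and only S100b and Aldoc show groups that do not overlap.

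Genes of glutamate and amino acid handling differed little. Of 6, 3 were higher and 3 lower, with a median log2 fold change of -0.0087. Slc1a2, the main glutamate transporter of forebrain astrocytes (GLT-1), read 12.74, 12.77 and 12.71 in POMCDicerKO and 12.65, 12.70 and 12.74 in control. Its log2 fold change was 0.045 with an interval from -0.098 to 0.19. Slc1a3, the transporter GLAST, read 11.67, 11.76 and 11.60 in POMCDicerKO and 11.68, 11.82 and 11.75 in control, with overlapping groups and a log2 fold change of -0.074. Glul, glutamine synthetase, read 13.01, 13.01 and 13.12 in POMCDicerKO and 12.97, 12.92 and 13.06 in control, a log2 fold change of 0.067. The values of these 3 genes overlapped between the groups. The GABA transporter Slc6a11 was at -0.052, the mitochondrial glutamate carrier Slc25a18 at -0.019 and the neutral amino acid transporter Slc7a10 at 0.0013, with the widest interval of this role, from -0.39 to 0.40.

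Genes of gap junctions, water and ions were 3 higher and 4 lower, with a median of -0.047. Gja1, the main connexin of astrocytes, read 12.90, 12.82 and 12.80 in POMCDicerKO and 12.80, 12.75 and 12.77 in control. The groups overlapped only between the lowest POMCDicerKO array and the highest control array, and the log2 fold change was 0.069 with an interval from -0.077 to 0.21. Gjb6, a further connexin of astrocytes, read 10.91, 10.90 and 10.95 in POMCDicerKO and 10.87, 10.57 and 10.97 in control, where array 2 stood low. Its log2 fold change of 0.12 was 0.0012 without control replicate 2. Aqp4, the water channel of the endfeet, read 10.72, 10.76 and 10.22 in POMCDicerKO and 10.49, 10.97 and 10.43 in control. Its groups lay across each other, and the log2 fold change was -0.064 with an interval from -0.49 to 0.37. Mlc1 and Hepacam, membrane proteins of the endfoot that bind each other, were at -0.053 and -0.047. The sodium bicarbonate cotransporter Slc4a4 was at 0.035 and Atp1b2, a sodium pump subunit, at -0.064.

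Metabolic and lipid enzymes were 3 higher and 3 lower, with a median of 0.0012. Aldoc, the aldolase of astrocytes, read 13.54, 13.45 and 13.49 in POMCDicerKO and 13.45, 13.41 and 13.45 in control. Its groups did not overlap, but the lowest POMCDicerKO and the highest control values agreed to 2 decimals, and they overlapped once each array was centred on its median or quantile normalised further. The log2 fold change was 0.057 with an interval from -0.085 to 0.20 (limma, unadjusted p = 0.38). Its further probe set 1424714_at gave 0.094 with overlapping groups. Aldh1l1, a folate enzyme used as a pan-astrocyte marker, read 8.89, 8.69 and 8.58 in POMCDicerKO and 8.85, 8.92 and 8.80 in control. Its log2 fold change was -0.13 (SE 0.091). It was -0.22 without POMCDicerKO replicate 1 and -0.060 without POMCDicerKO replicate 3. The fatty acid ligase Acsbg1 was at 0.039, the glycogen-targeting subunit Ppp1r3c at -0.036, the lipase Pla2g7 at 0.063 and the phospholipase Plcd4 at -0.10.

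Secreted and cell surface proteins were 5 higher and 3 lower, with a median of 0.014. Gpc5, a glypican, read 9.84, 9.76 and 9.76 in POMCDicerKO and 9.74, 9.44 and 9.84 in control, where array 2 was again the lowest of the 6. Its log2 fold change was 0.11, and -0.0092 without control replicate 2. F3, tissue factor, the trigger of coagulation, was at 0.12, and -0.076 without control replicate 2. The matricellular protein Sparcl1 and the chaperone apolipoprotein Clu were the steadiest of the members, each at 0.023 with all 6 arrays within 0.088 and 0.093 of each other. Agt, the angiotensin precursor, was at -0.032, the protease inhibitor Cst3 at -0.044, the phagocytic bridging protein Mfge8 at 0.0043 and the serine protease Htra1 at -0.00062.

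Receptors were 1 higher and 3 lower, with a median of -0.043. Fgfr3, a fibroblast growth factor receptor, was at -0.066, the endothelin receptor Ednrb at -0.020 and the neurotensin receptor Ntsr2 at -0.10, each with overlapping groups. Bmpr1b was the one above control. Ntsr2 read 11.71 on POMCDicerKO array 1 against 11.16 and 11.22 on the other POMCDicerKO arrays, and without POMCDicerKO replicate 1 its log2 fold change was -0.27 (unadjusted p = 0.032 by limma).

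Members with several probe sets gave a further view of the same arrays. Of the 94 probe sets, 57 were higher and 37 lower, with a median log2 fold change of 0.021, and 1 had an unadjusted p under 0.05, where 2.44% of all probe sets were called. Groups did not overlap at 4 of them, all higher, where the share over all probe sets, counting both directions, was 6.36%. They were the main probe sets of S100b and Aldoc, Gja1 1438973_x_at (0.069, at a mean of 5.57) and Slc1a3 1439072_at (0.16). The main Slc1a3 probe set had the opposite sign, at -0.074. Of 56 further probe sets, 16 had a sign opposite to their gene's main probe set, and 0 of these had an unadjusted p under 0.05 by limma. Intervals lay inside 1.5-fold for 88 of the 94. Those of Ednrb 1426314_at (-0.79 to 0.27) and 1423594_a_at (-0.22 to 0.67) reached outside it. So did those of Gja1 1415801_at (-0.39 to 0.94), Slc1a2 1439940_at (-0.68 to 1.01) and Ppp1r3c 1425631_at (-0.49 to 0.74). Some further probe sets scattered more widely than the main ones. Gja1 1415801_at read 7.40, 7.68 and 7.54 in POMCDicerKO and 6.78, 7.02 and 8.02 in control, while the main Gja1 probe set varied by 0.15 over the 6 arrays. Slc1a3 1426341_at likewise read 9.50, 9.64 and 9.69 in POMCDicerKO and 9.12, 9.75 and 9.94 in control. These 2 probe sets, the further ones without overlap, and the further ones of S100b, Gfap, Aldoc, Ednrb, Slc1a2 and Ppp1r3c were named after their values were seen.

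**Figure D3:**
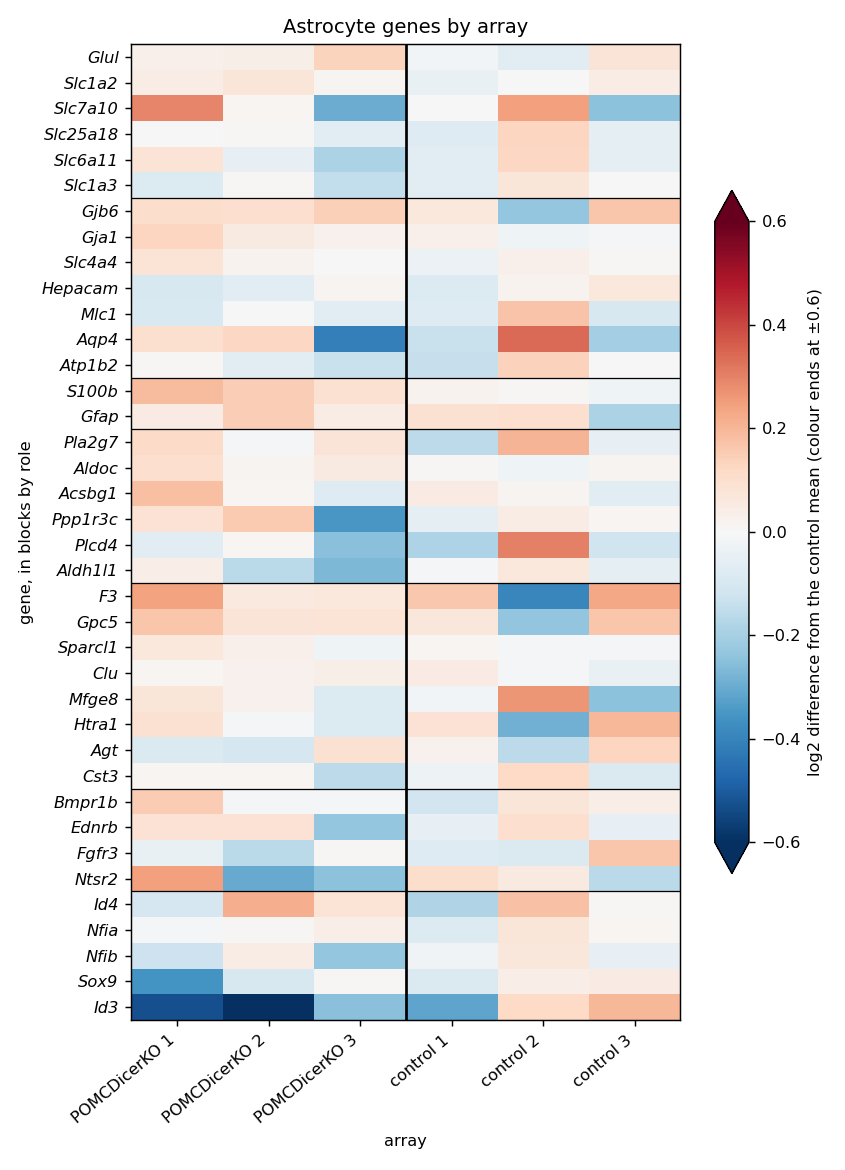
Difference of each astrocyte gene from its control mean on the log2 scale, with POMCDicerKO arrays at left and control arrays at right, and genes in blocks by role. No block changes colour as a whole between the groups. Control 2 is the highest array for 14 genes and the lowest for 8, and POMCDicerKO 3 is the lowest for 12.

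Control array 2 was the highest of the 6 for 14 of the 38 genes, among them Aqp4, Mlc1, Pla2g7, Plcd4, Cst3 and Mfge8, and the lowest for 8, among them F3, Gpc5, Gjb6 and Htra1. Over 11742 genes with a mean of at least 6, it was the highest for 28.5% and the lowest for 15.4%. POMCDicerKO array 3 was the lowest for 12 members, among them Aqp4, Ppp1r3c, Slc7a10 and Ednrb, beside 30.5% of those genes. POMCDicerKO array 1 was the highest for 10, beside 17.8%. Control array 2 also stood apart in the array's own 18S ribosomal RNA control, at 11.18 for the 3′ probe set, against 12.57, 12.67 and 12.61 on the POMCDicerKO arrays and 12.79 and 12.54 on the other control arrays. The 3′ minus 5′ difference of the Actb control probe sets was 1.19, 1.16 and 1.12 in POMCDicerKO and 1.23, 1.31 and 1.17 in control, with control array 2 the highest. For Gapdh it was -0.011, -0.022 and -0.011 in POMCDicerKO and 0.064, 0.041 and 0.042 in control. Their part in the values of the members was not tested.

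A further list held genes of astrocytes that are not members. Of 29 measured from a list of 30, 9 were higher and 20 lower (8165 and 10028 over all genes). Their median log2 fold change was -0.027, and 0 passed the adjusted threshold by limma. Intervals lay inside 1.5-fold for 25 (86.2%), beside 97.2% of all genes, and groups did not overlap for 3 (10.3%), beside 6.44%. Wide intervals belonged to Slc13a3 at -0.32, Fabp7 at -0.23 and Etnppl at 0.21, each with overlapping groups and named after their values were seen. At an unadjusted p under 0.05 there were 2, Fgfr2 and Gjb2, beside 2.41% of all genes. Fgfr2, a fibroblast growth factor receptor also found in oligodendrocytes, read 8.70, 8.62 and 8.47 in POMCDicerKO and 8.42, 8.36 and 8.41 in control, a log2 fold change of 0.20 with no overlap. Over the alternatives Fgfr2 ran from 0.021 to 0.26, and with single arrays left out from 0.15 to 0.26. Gjb2, a connexin, read 5.96, 5.98 and 5.97 in POMCDicerKO and 6.54, 6.58 and 5.98 in control, at -0.40. Its groups did not overlap, yet control array 3 lay beside the POMCDicerKO arrays. Against control 3 alone Gjb2 was at -0.012, and with single arrays left out it ran from -0.59 to -0.29. Control array 3 was the lowest control for Gjb2, so a smaller difference against it alone follows from that choice. The metallothionein Mt3 was at -0.16 and Cbs, an enzyme of sulphur amino acids, at -0.14. Gjb2 is also a gene of the meninges. Of 11 meningeal and fibroblast markers, 11 were lower, and their median difference from the control mean was -0.41, -0.67 and -1.14 in POMCDicerKO and 0.32, 0.45 and -0.83 in control, with control array 3 low as for Gjb2. Their part in the Gjb2 values was not tested.

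Genes known from reactive astrocytes showed no shared direction. Of 30 measured from a list of 32, 12 were higher and 18 lower, with a median log2 fold change of -0.048 and 0 past limma's adjusted threshold. In 15 of them the mean was below 6. At an unadjusted p under 0.05 there were 5 (16.7%), beside 2.41% of all genes. Groups did not overlap for 4 (13.3%), 2 higher and 2 lower, beside 6.44% of all genes. Intervals lay inside 1.5-fold for 27 (90%), beside 97.2%. Osmr, the oncostatin M receptor, read 6.54, 6.45 and 6.66 in POMCDicerKO and 6.14, 6.40 and 6.35 in control, with no overlap and a log2 fold change of 0.26. Ptx3, a pentraxin, was at 0.23 with a mean of 5.07, near the lower part of the scale. Cp, the copper-carrying ferroxidase ceruloplasmin, read 6.92, 6.90 and 6.99 in POMCDicerKO and 7.45, 7.44 and 7.08 in control, at -0.38 with no overlap. Averaged over all of its probe sets, Cp was at -0.20. The complement inhibitor Serping1 was at -0.59 and the hyaluronan receptor Cd44, named after its values were seen, at -0.56. For Cp, Serping1 and Cd44, control arrays 1 and 2 were the high ones and control array 3 the low one, as for the meningeal markers, whose part was not tested. Against control 3 alone, Cp was at -0.14, Serping1 at 0.022 and Cd44 at -0.15. Control array 3 was the lowest control for each of them, so less negative values follow from that choice. Without control replicate 3, Serping1 was at -0.90. Without control replicate 2, Cd44 was at -0.31. With its probe sets averaged, Cd44 was at -0.18 (limma, unadjusted p = 0.16). Its unadjusted p by limma was 0.058 with the filter at a mean of at least 6 and 0.00045 with same-numbered arrays paired. Serpina3n, a much used marker of reactivity, was at -0.059 and Stat3 at -0.026, both named after their values were seen. Lcn2, another such marker, had a mean of 3.81, near the lowest values of the arrays, so that no difference could be read from it.

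**Figure D4:**
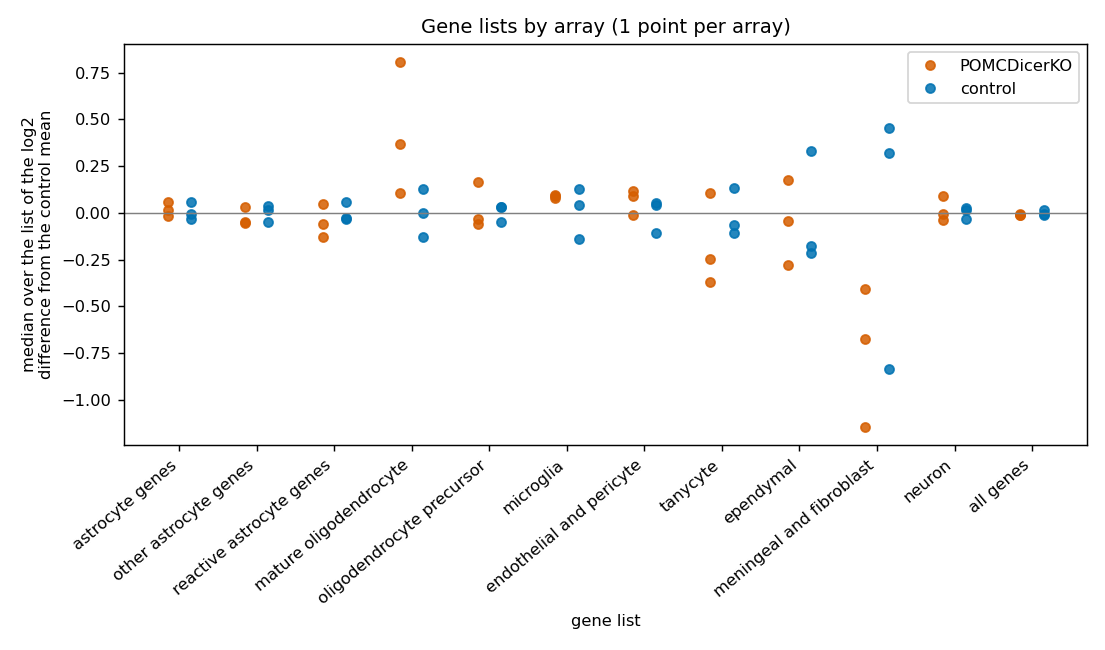
Median over each gene list of the log2 difference from the control mean, 1 point per array, with POMCDicerKO to the left of control within each list. The astrocyte genes lie between -0.033 and 0.060 on all 6 arrays, while mature oligodendrocyte, tanycyte, ependymal and meningeal genes spread more widely.

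By array, the median difference of the 38 members from the control mean was 0.057, 0.014 and -0.016 in POMCDicerKO and -0.033, 0.060 and -0.0041 in control. The groups overlapped, and the highest array was a control. Markers of neurons, 11 genes with a median log2 fold change of 0.013, and of oligodendrocyte precursors, 7 genes at -0.015, were also near control. Of 6 ependymal markers 1 was higher and 5 lower, with a median of -0.037. By array their median difference was -0.28, 0.18 and -0.043 in POMCDicerKO and -0.21, 0.33 and -0.18 in control. Microglia markers were 10 higher and 2 lower, with a median of 0.096.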

How the data were processed

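The values were deposited by the authors as log2 expression per probe set, made with RMA in the affy package per the submitters' processing notes; the notes give no versions. RMA itself corrects background, normalises arrays by quantiles and summarises probes, so a shift shared by most transcripts is removed. There were 0 unused sample columns and 64 control probe sets were left out of the test. Of the rest, 34945 had 1 gene symbol, 932 several and 9160 none listed; symbols were updated through Entrez identifiers in RefSeq's GRCm38.p6 gene table (34741 found).

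Groups came from sample titles. The test of POMCDicerKO against control used limma 3.58.1 in R 4.3.3 (lmFit and eBayes, threshold 0.05 after Benjamini-Hochberg adjustment over 45037 probe sets), checked on simulated data. The SE of a fold change is limma's, moderated in the same way as the p-values. Members and lists were chosen with earlier results of these data known. Every member is named, with array values for 8 standard markers and the 12 members of smallest p, and up to 4 genes of other lists. The number of arrays limits the precision, and no hybridisation batch is given in the labels. Alternatives changed the scaling, filter, prior, weights, probe set choice, block and samples.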

Additional observations from a re-analysis of the deposited data

How the results depend on the processing

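No member passed limma's adjusted threshold over all probe sets under the main setting, the 12 alternatives or without any of the 6 single arrays. The count at an unadjusted p under 0.05 was 0 to 3 with single arrays left out, in fits that called 1.78% to 3.61% of all genes. It was 3 without POMCDicerKO replicate 1, where 2.08% were called, and 1 without control replicate 1, where 3.61% were called. Over all probe sets 0 to 2 passed with single arrays left out and 1 with control 3 as sole control, a lone sample taken to have the POMCDicerKO arrays' spread. The unadjusted count, 1 in the main setting, was 2 with a further quantile normalisation, a trended prior, array weights or control 3 as the only control, where 2.52%, 2.32%, 2.74% and 2.61% of all genes were called. Groups overlap less often with fewer arrays. Members without overlap numbered 3 to 7 with single arrays left out, beside 13% to 18.5% of all genes, and 16 of 38 with control 3 as the only control, beside 43.6%. They numbered 1 with each gene's probe sets averaged (Slc4a4, beside 6.35% of all genes) and 1 with each array centred (S100b, beside 6.73%). With a further quantile normalisation the 2 were Gja1 and S100b, beside 6.78%. The interval count was 35 to 37 with single arrays left out, beside 95.1% to 96.9% of all genes. It was 33 with no moderation (92.1%) and 33 with control 3 as the only control (90.6%). The medians ran from -0.030 to 0.044 for the members, -0.048 to -0.010 for other astrocyte genes and -0.073 to 0.0086 for reactive genes, and the last was 0.033 with control 3 as the only control. The replicate block, in which same-numbered arrays are paired, left the counts at 0 past the threshold, 1 at the unadjusted p and 2 without overlap, and the median at 0.00033. With the block, 3.2% of all genes had an unadjusted p under 0.05 by limma, beside 2.41% in the main setting. The deviations of same-numbered arrays correlated at 0.13, 0.079 and 0.12, and those of differently numbered arrays between -0.11 and -0.018. Each array thus correlated best with its own number. The labels do not say what a number stands for, so the unpaired fit was kept as the main setting and a pairing is not excluded.

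Of the 38 members, 15 kept their sign without any single array and 23 did not; the cause was not tested. Their ranges were -0.12 to 0.016 for Slc6a11, -0.14 to 0.15 for Slc7a10, -0.058 to 0.046 for Slc25a18, -0.17 to 0.11 for Aqp4, -0.10 to 0.034 for Mlc1 and -0.13 to 0.0050 for Atp1b2. They were -0.015 to 0.13 for Gfap, -0.033 to 0.096 for Acsbg1, -0.13 to 0.12 for Ppp1r3c, -0.016 to 0.16 for Pla2g7, -0.19 to 0.051 for Plcd4 and -0.11 to 0.032 for Agt. They were -0.088 to 0.015 for Cst3, -0.12 to 0.14 for Mfge8, -0.15 to 0.10 for Htra1, -0.0092 to 0.19 for Gpc5, -0.076 to 0.24 for F3 and -0.11 to 0.017 for Fgfr3. They were -0.012 to 0.080 for Bmpr1b, -0.074 to 0.087 for Ednrb, -0.27 to 0.0015 for Ntsr2, -0.028 to 0.048 for Nfia and -0.025 to 0.15 for Id4. Under the 12 other alternatives 430 of 456 member values kept their sign. Centring each array turned Slc7a10 to -0.0061 and Mfge8 to -0.0031, and a further quantile normalisation turned Sparcl1 to -0.0036. Array weights turned Slc25a18 to 0.00016, Aqp4 to 0.045, Ppp1r3c to 0.043 and Ednrb to 0.039. With control 3 as the only control, Glul was at -0.012, Slc6a11 at 0.0069, Slc25a18 at 0.033, Gjb6 at -0.050, Aqp4 at 0.14, Mlc1 at 0.042, Plcd4 at 0.020, Cst3 at 0.042, Gpc5 at -0.059, F3 at -0.11, Ednrb at 0.031, Ntsr2 at 0.062 and Serping1 at 0.022. With each gene's probe sets averaged, Slc1a3 was at 0.020, Hepacam at 0.0046, Ppp1r3c at 0.045, Plcd4 at 0.0018, Htra1 at 0.0099 and Nfia at -0.0083. With a main probe set free of the _x_at and _s_at suffixes, which mark possible cross-hybridisation, Htra1 was at 0.020 and Cbs at 0.021.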
